A study of Mus musculus with 10 samples.

Results

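Granular loricrin-high keratinocytes of embryonic mouse back skin were taken as the cells that carried large amounts of loricrin transcript on top of the early differentiation keratins. A cell was a member when it held at least 20 UMIs (unique molecular identifiers, 1 per captured transcript) of Krt1 and Krt10 together, at least 20 UMIs of Lor and fewer than 30 UMIs of Col1a1 and Col3a1 together. Members came from cells with more than 1000 and fewer than 6000 detected genes and less than 10% mitochondrial UMIs. In all, 70 of 55482 such cells met the rule, which is 0.126% of them and 5.86% of the 1195 cells that met the keratin and collagen limits alone (Krt1/Krt10 cells). The other 1125 Krt1/Krt10 cells, with Lor under 20 UMIs, are called spinous cells here and were the comparison within each library.

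The libraries were 10x Genomics single-cell RNA-seq of whole back skin from 10 samples in 6 groups. Control and MOF cKO skin were each sampled with 2 libraries at E15.5 (E for embryonic day; 3′ v3.1 chemistry) and with 2 at E16.5 (v2 chemistry). E17.5 skin (v3 chemistry) gave a single library each of control and QPC cKO. MOF cKO is the genotype MOFfl/fl/K14Cre, in which the histone acetyltransferase MOF (gene Kat8) is deleted by a Cre recombinase driven by the Krt14 promoter, and QPC cKO is QPCfl/fl/K14Cre, which removes a subunit of mitochondrial complex III (gene Uqcrq). The Krt14 promoter is active in the basal layer and its appendages, so dermal cells of the same skin keep the gene. The MOF cKO libraries of E15.5 were not alike as models. By staining for the histone mark that MOF deposits, the embryo of replicate 5 was depleted throughout its epithelium, while that of replicate 6 was mosaic and also held epithelial cells that kept the mark. Controls were wild-type or heterozygous littermates, and both sexes on a mixed C57Bl/6J and CD-1 background were used. Stage and chemistry changed together and cannot be told apart.

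The granular layer is the last living layer of the epidermis. Keratinocytes leave the basal layer, switch from Krt5 and Krt14 to Krt1 and Krt10 in the spinous layer, and then load the cytoplasm with filaggrin and loricrin and assemble lipid-filled lamellar bodies. Transglutaminases then cross-link loricrin, involucrin and related proteins into the cornified envelope while the nucleus and mitochondria are dismantled. Many envelope genes sit side by side in the epidermal differentiation complex. Of the 56 genes in the cornified envelope, late cornified envelope and small proline-rich lists used here, 48 lie between positions 92080271 and 93471980 of chromosome 3 (GRCm38, GENCODE vM21).

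The promoters of 4 genes show how members of this program differ in sequence, as the 250 bases before the gene start (RefSeq, GRCm38.p6, gene strand). Lor is the gene that chose the cells. Ivl (involucrin) is an envelope gene of which members held 31 of 261 UMIs in the Krt1/Krt10 cells of E15.5 MOF cKO replicate 5. In replicate 6 members held 6 of 13, and the E16.5 MOF cKO libraries had only 1 and 0 members. Krtdap is expressed in both spinous and granular cells. Hrnr (hornerin) had 91.0% or more of its UMIs in members in each of the 6 libraries with at least 5 members. Capitals mark the AP-1 consensus TGANTCA, which reads the same on both strands.
Lor, chr3:92083143-92083392, minus strand: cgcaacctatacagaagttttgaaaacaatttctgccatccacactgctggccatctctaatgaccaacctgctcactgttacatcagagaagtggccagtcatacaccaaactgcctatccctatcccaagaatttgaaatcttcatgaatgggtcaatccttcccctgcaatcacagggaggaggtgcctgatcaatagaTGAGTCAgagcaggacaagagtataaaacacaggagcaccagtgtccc
Ivl, chr3:92573736-92573985, minus strand: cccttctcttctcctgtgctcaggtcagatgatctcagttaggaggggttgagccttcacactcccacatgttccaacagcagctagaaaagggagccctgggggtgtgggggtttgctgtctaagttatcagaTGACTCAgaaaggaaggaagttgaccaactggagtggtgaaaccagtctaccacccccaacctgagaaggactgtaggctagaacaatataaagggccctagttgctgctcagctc
Krtdap, chr7:30787655-30787904, plus strand: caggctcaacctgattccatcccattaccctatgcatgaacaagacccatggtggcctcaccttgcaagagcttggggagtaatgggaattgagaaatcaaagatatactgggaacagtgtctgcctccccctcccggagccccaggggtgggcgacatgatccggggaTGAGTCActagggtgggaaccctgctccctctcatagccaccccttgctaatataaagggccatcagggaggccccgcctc
Hrnr, chr3:93319499-93319748, plus strand: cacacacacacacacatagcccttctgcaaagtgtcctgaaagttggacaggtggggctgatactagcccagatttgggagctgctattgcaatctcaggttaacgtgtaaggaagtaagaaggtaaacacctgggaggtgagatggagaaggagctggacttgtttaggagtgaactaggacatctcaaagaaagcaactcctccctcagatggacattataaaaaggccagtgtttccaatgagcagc
The match began 48 bases before the start of Lor, 116 before that of Ivl and 81 before that of Krtdap. Over the 32851 promoters counted, a set that leaves some promoters out, 6.75% held the motif in this window. The lists were counted by gene, with any promoter of a gene sufficing, so their shares are not in the same unit as the 6.75%. The motif was present in 10 of 15 genes of the cornified envelope list and 9 of 14 of the small proline-rich list, and in 0 of 20 of the late cornified envelope list. In the barrier lipid list it was present in 2 of 27 (7.41%) and in the protease list in 0 of 17.

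Members were found in 7 of the 10 libraries. At E15.5 they numbered 10 and 15 in the control libraries (replicates 2 and 3) and 8 and 15 in the MOF cKO libraries (replicates 5 and 6). At E16.5 they numbered 7 and 14 in the controls (replicates 1 and 2), 1 in MOF cKO replicate 1 and 0 in MOF cKO replicate 2. No cell of either E17.5 library met the rule.

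**Figure D1:**
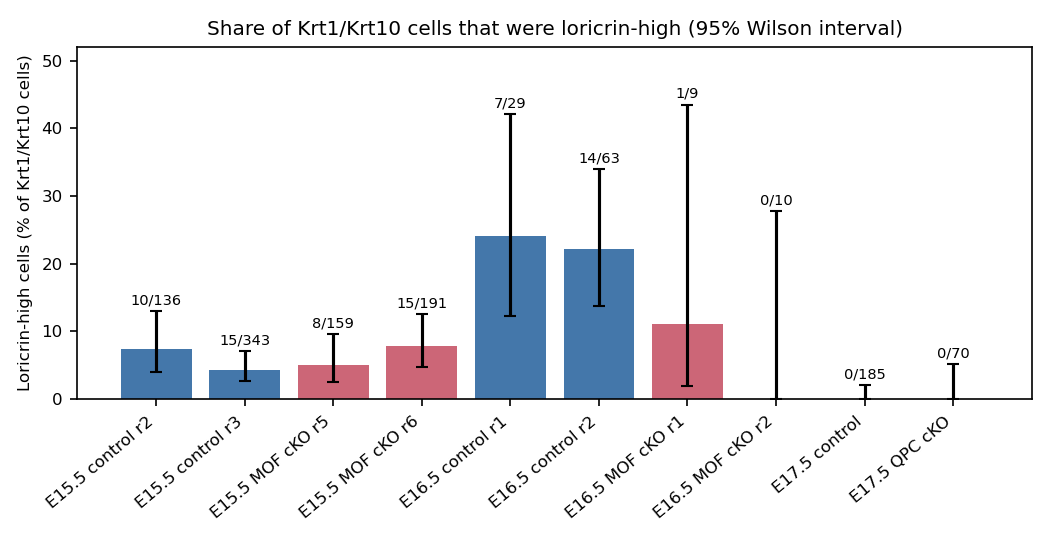
Loricrin-high cells as a percentage of Krt1/Krt10 cells in each library (vertical axis, %), with 95% Wilson intervals as bars and the counts above them, controls in blue and MOF cKO in red. The 2 E16.5 controls stand at 24.1% and 22.2%, the 4 E15.5 libraries lie between 4.37% and 7.85%, and both E17.5 libraries are at 0.

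At E15.5 the share of Krt1/Krt10 cells that were loricrin-high was 7.35% and 4.37% in the controls and 5.03% and 7.85% in the MOF cKO. The groups overlapped, and the mean differed by 0.579 percentage points (5.86% ± 2.11 against 6.44% ± 1.995, SD, n = 2 each; exact two-sided permutation test, p = 0.667). Of all kept cells, members made up 0.142% ± 0.0321 in the controls and 0.110% ± 0.0440 in the MOF cKO (n = 2 each, exact p = 0.667). With 2 libraries against 2 the smallest p that the test can give is 0.333, so no share could pass the threshold. The difference in the first share turned negative without control replicate 3 (−0.911) or MOF cKO replicate 6 (−0.832), and with Lor at 10 UMIs or more the means were 6.15% and 11.2% (exact p = 0.333). The intervals and limits given for shares cover counting error only.

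At E16.5 the share of Krt1/Krt10 cells was 24.1% (95% Wilson interval 12.2 to 42.1%) and 22.2% (13.7 to 33.9%) in the controls. It was 11.1% (1.99 to 43.5%) in MOF cKO replicate 1 and 0 of 10 cells in replicate 2, a count that allows a share of up to 30%. Both MOF cKO libraries lay below both controls, with means of 23.2% ± 1.35 and 5.56% ± 7.86 (SD, n = 2 each, exact p = 0.333, the smallest this design allows). The MOF cKO libraries held only 9 and 10 Krt1/Krt10 cells, so the single-library intervals overlap those of the controls. As a share of all kept cells, the controls stood at 0.614% and 0.572%, MOF cKO replicate 1 at 0.140% and replicate 2 at 0 of 1363, which allows up to 0.220%.

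In the E17.5 libraries, 0 of 185 control and 0 of 70 QPC cKO Krt1/Krt10 cells were members, which allows shares of up to 1.62% and 4.29%. Loricrin was scarce in the whole of both libraries. The largest Lor count in any called barcode was 15 UMIs in the control and 10 in the QPC cKO, with 736 and 1147 UMIs of Lor in total. In the Krt1/Krt10 cells of the E17.5 control Lor stood at 15.497 CPM (UMIs scaled to a total of 1000000; exact Poisson interval 12.2 to 19.4) and in the QPC cKO at 13.3 CPM (8.74 to 19.3), intervals that overlap. Early differentiation genes were present in the same cells. Krtdap, which encodes keratinocyte differentiation-associated protein, stood at 3174 CPM in the control and 3778 CPM in the QPC cKO, while Hrnr was at 0 and 8 UMIs. Uqcrq itself was at 144 CPM in the control and 27.5 CPM in the QPC cKO. With no member and 1 library a group, nothing can be said of granular cells in the QPC cKO.

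The label of the members was checked against the markers Lor, Flg, Krt1 and Krt10. Lor, Krt1 and Krt10 were used by the rule. Flg (filaggrin), the other classical granular marker, was at 0 UMIs in the 48 members of E15.5 and reached 16 and 3 UMIs in the 2 E16.5 control libraries, summed over the gene entries of that name in the E16.5 reference. Ivl, which encodes the envelope precursor involucrin, was detected in 42 of 70 members. Krt2, a keratin of the upper suprabasal layers, was at 0 UMIs in the members of every E15.5 library. Filaggrin was thus not detected in E15.5 members, for a cause that was not tested, and the cells are named by loricrin. Some members went against the label. In 7 of 70 the basal keratins Krt5 and Krt14 together reached at least 20 UMIs, and 4 of these 7 were among the 15 members of MOF cKO replicate 6. In 10 of 70 the proliferation list reached at least 15 UMIs. One member of E15.5 control replicate 2 held 104 Krt5 and 154 Krt14 UMIs beside 10 of Krt1, 24 of Krt10 and 38 of Lor, with 93 UMIs of the proliferation list.

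The limit of 20 Lor UMIs bore most on 1 library. Just inside it, 5 members had 20 to 29 UMIs (median 25), and just outside it 22 Krt1/Krt10 cells had 10 to 19 (median 13). With a limit of 10 UMIs, MOF cKO replicate 5 had 18 such cells in place of 8, or 11.3% in place of 5.03% of its Krt1/Krt10 cells. The median Lor count of members was 740.5 and 229 UMIs in the E15.5 controls, 1267 and 100 in the E15.5 MOF cKO, and 2504 and 1326 in the E16.5 controls. Over all members, Lor ranged from 21 to 7676 UMIs. In all, 111 kept cells had at least 20 Lor UMIs. Of these, 27 failed the keratin limit and 14 met it but failed the collagen limit.

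Lor UMIs in cells rich in collagen transcripts were most common in the E16.5 controls. Whether these UMIs came from free RNA was not tested. Among cells with at least 30 collagen UMIs, which should lack Lor, 91.8% and 66.5% in the E16.5 controls carried at least 1 Lor UMI (medians 3 and 1 UMIs), against 20.8% and 11.2% in the E16.5 MOF cKO and 5.80 to 13.9% in the E15.5 libraries. At most 0.206% of them reached 20 Lor UMIs in any library. The median depth of these collagen cells was 9822 to 13470 UMIs in the 8 libraries of E15.5 and E16.5.

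Most members had almost no mitochondrial transcripts. The median mitochondrial share was 0.0897% and 0.678% in the E15.5 controls, 0.0320% and 0.0444% in the E15.5 MOF cKO, and 0.0848% and 0.134% in the E16.5 controls. The spinous cells of the same 6 libraries had medians between 2.53% and 4.86%. In all, 53 of 70 members were below 1%. These 53 cells had a median of 7397 UMIs, 1650 genes and 787 Lor UMIs, and the other 17 had 28168 UMIs, 4354 genes and 100 Lor UMIs. A low mitochondrial share was also found in cells with little Lor. In the E16.5 MOF cKO, 7 of 8 and 8 of 10 spinous cells were also below 1%, with medians of 0.0685% and 0.0431%. In the E15.5 MOF cKO replicate 5, 31 of 151 spinous cells were below 1%, against 15 of 176 in replicate 6 and 1 of 126 and 10 of 328 in the controls.

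**Figure D2:**
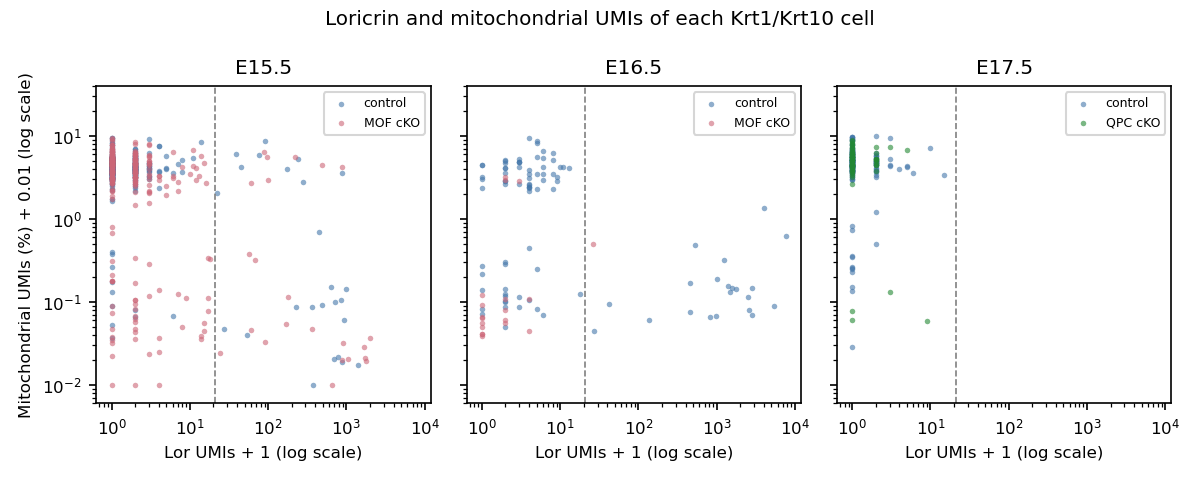
Each point is 1 Krt1/Krt10 cell, with its Lor UMIs plus 1 (horizontal, log scale) and its mitochondrial UMIs in percent plus 0.01 (vertical, log scale), in 1 panel per stage and coloured by genotype. The dashed line marks the limit of 20 Lor UMIs. Most cells to its right lie below 1% and no E17.5 cell lies to its right.

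Many terminal genes stood higher in members than in spinous cells of the same library. Because Lor chose the cells, and the genes of one cell rise and fall together, these differences are a description without a test. Of 2967 genes measured at 50 CPM or more in either class, 14.4% were higher and 36.7% lower in members in 6 of 6 libraries with at least 5 members, and the median gene stood at −0.52 on the log2(CPM + 10) scale. All differences between members and spinous cells below are means over these 6 libraries on that scale.

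Apart from the genes of the rule, the envelope genes Hrnr, Cnfn and Crct1 differed most among genes higher in all 6 libraries. In the cornified envelope list 8 of 13 measured genes were higher in all 6 libraries and 0 were lower, with a median difference of 1.93. Some other lists had higher medians, such as alarmin and cytokine (3.66) and suprabasal keratin (3.58). Hrnr, an S100-fused repeat protein related to filaggrin, was 8.05 higher. Its level in members was 8433 and 1830 CPM in the E15.5 controls, 6948 and 3089 in the E15.5 MOF cKO and 7768 and 5071 in the E16.5 controls, against 4.36 to 20.5 CPM in spinous cells. Cnfn (cornifelin) was 7.31 higher, Crct1 (cysteine-rich C-terminal 1) 6.50, Ivl 4.10 and Sbsn (suprabasin) 3.40. Krtdap differed by 1.93 and was already at 3080 to 7637 CPM in spinous cells of these libraries.

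Late cornified envelope genes were uneven between cells. Lce6a was higher in all 6 libraries, by 5.37. Lce1m was at 0 in all 4 E15.5 libraries, at 37350 CPM in E16.5 control replicate 1 and at 2660 CPM in replicate 2. The list took 15.3% of all member UMIs in E16.5 control replicate 1, 0.694% in replicate 2 and 0.0306 to 0.190% at E15.5. Most of the first value came from 2 cells, with 11976 and 5701 Lce UMIs, and the other 5 members of that library held 17 or fewer each. In replicate 2, 2 cells held 985 and 100 of the 1119 Lce UMIs and the other 12 held 12 or fewer each. The higher share of the list at E16.5 thus rested on 4 cells. Over all libraries 8 members gave at least 0.5% of their UMIs to Lce genes, and Ivl was found in 1 of these 8 against 41 of the other 62.

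Many lipid genes and some protease genes of the barrier were also higher. In the barrier lipid list 13 of 20 measured genes were higher in 6 of 6 libraries and 0 were lower, with a median of 1.92. They included Alox12b, the lipoxygenase that starts the processing of barrier ceramides (5.08), Elovl1, a fatty acid elongase (3.59), and Sult2b1, the cholesterol sulfotransferase (2.56). Tgm1, the transglutaminase that cross-links the envelope, was 2.61 higher. Of 13 measured proteases, 6 were higher and 1, cathepsin C (Ctsc), was lower by 3.31 on this scale. The higher ones included Asprv1, which processes filaggrin (3.97), and the kallikrein Klk5 (3.68), which sheds corneocytes. The kallikrein inhibitor Spink5 was 4.15 higher, among the 6 of 14 measured inhibitors that were higher, while the stefins Stfa1 and Stfa3 were lower.

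Genes tied to removal of the nucleus and organelles were also higher in members. In that list 5 of 8 measured genes were higher in every one of the 6 libraries, among them Gsdma (gasdermin A, 4.46) and the nucleases Trex2 (4.16) and Dnase1l2, and Lmna (lamin A/C) was lower by 0.76. In the alarmin and cytokine list 5 of 6 measured genes were higher and 0 were lower. Of its interleukin-36 family genes, Il1f5, the receptor antagonist, was 4.71 higher and Il1f6 3.70 higher. Of 11 calcium-binding genes, 4 were higher, led by Calml3 (3.72) and Calm4 (3.46), and 3 were lower, among them S100a10 and S100a11.

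Transcription factors lay on both sides. Of 20 measured regulators, 5 were higher in 6 of 6 libraries, namely Hopx (4.93), Elf5 (3.96), Rora, Cebpb (1.46) and Klf4 (1.02). Another 7 were lower, a share close to the 36.7% of all measured genes, including Notch1 (−2.65), which drives the exit from the basal layer, and Trp63 (−2.32), the master factor of the epithelial state. Basal keratins were lower in all 6 libraries, with Krt5 at −4.56, Krt15 at −4.53 and Krt14 at −4.29. In the proliferation list 11 of 12 genes were lower, with a median of −2.52. Of 4 measured suprabasal keratins outside the rule 3 were higher, led by Krt77 (6.45), and 1, Krt79, was lower (−3.31).

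Among energy genes, the mitochondrially encoded ones were lower more often than genes in general. Of 11 of these 10 were lower in 6 of 6 libraries, with a median of −1.73. Of 74 nuclear-encoded subunits of oxidative phosphorylation 29 were lower, a share close to the 36.7% of all measured genes. In that list 1 gene was higher, and the median was −0.59. The median of the nuclear-encoded subunits thus lay within 0.1 of the median of all genes, −0.52.

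**Figure D3:**
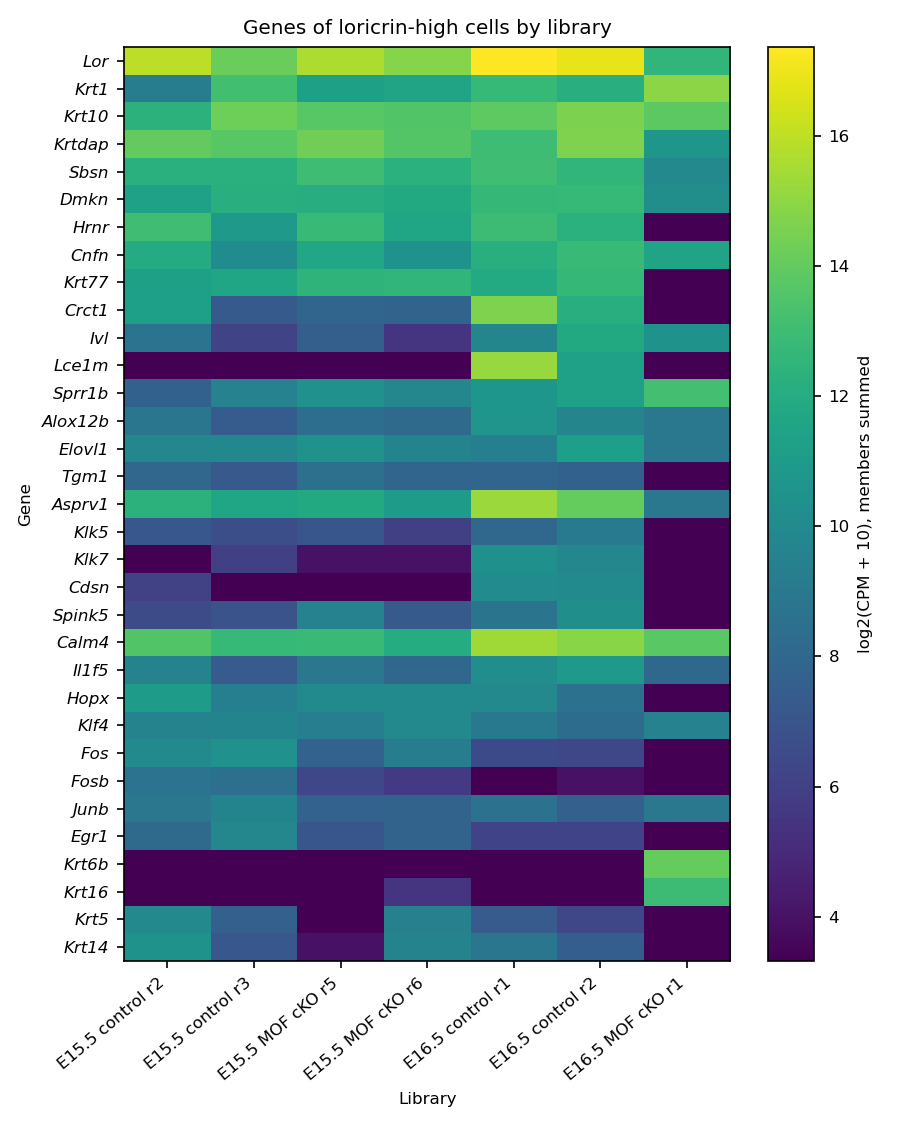
Levels of 33 genes in the summed members of each library, as log2(CPM + 10), with genes in rows and libraries in columns (dark is low, yellow is high). Lce1m, Cdsn and Klk7 are lit in the 2 E16.5 controls, Fosb and Egr1 are brighter in the 2 E15.5 controls than in the 2 E15.5 MOF cKO libraries, and Krt6b and Krt16 are high in the single E16.5 MOF cKO cell.

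Between the stages, some terminal genes stood higher in the members of the E16.5 controls than in those of the E15.5 controls. The values are of 2 libraries each, made with different chemistries, for genes chosen after they were seen, and were not tested. Summed over its list, transglutaminase transcripts did not stand higher, at 0.0264% and 0.0215% of member UMIs at E15.5 and 0.0234% and 0.0223% at E16.5. Calm4 stood at 11801 and 6837 CPM at E15.5 and at 41793 and 29726 CPM at E16.5. Asprv1 stood at 5254 and 3181 CPM at E15.5 and at 38563 and 16943 CPM at E16.5. Single cells differed less in the first of these, where Asprv1 had a median of 110 and a maximum of 714 per 10000 UMIs, than the sum does. The medians were 185 in the other E16.5 control and 70.1 and 38.4 at E15.5. Cdsn, which encodes corneodesmosin, was at 56.6 and 0 CPM at E15.5 and at 1100 and 1054 CPM at E16.5. Klk7 was at 0 and 52.8 CPM and then at 1325 and 887 CPM. Each of these genes was higher in both E16.5 libraries than in both E15.5 libraries. Krtdap overlapped, with 16291 and 13734 CPM at E15.5 and 8132 and 25628 CPM at E16.5, and so did Hrnr and Krt77. The immediate early gene Fos went the other way, from 1009 and 1388 CPM to 77.9 and 68.2 CPM. This was not particular to members. In spinous cells of these controls the AP-1 and immediate early list made up 1.22% and 1.21% of UMIs at E15.5 and 0.318% and 0.213% at E16.5. Of its 13 measured genes, 9 were lower in members than in spinous cells in 6 of 6 libraries, beside 36.7% of all genes. Members under 1% mitochondrial UMIs were 8 of 10 and 8 of 15 at E15.5 and 7 of 7 and 13 of 14 at E16.5.

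Members of the E15.5 MOF cKO were compared with those of the E15.5 controls by edgeR's quasi-likelihood test on summed UMIs, with Benjamini-Hochberg adjustment over 2206 genes. Only 2 genes passed (0.0907% of those tested), and both are globins of red blood cells. Hbb-bs stood at 8999 and 17752 CPM in the control members and 421 and 500 CPM in the MOF cKO members (log2 fold change −4.96 ± 0.46, SE, adjusted p = 0.0091). Hba-a1 was lower by 4.73 ± 0.56 on the log2 scale (adjusted p = 0.0312). All 4 globins were lower in both MOF cKO libraries than in both controls. These calls rested on 2 control cells. One member of control replicate 2 held 1633 of the library's 1833 member UMIs of the list that holds the globins with melanocyte, muscle and Schwann cell markers, and 1 of control replicate 3 held 9643 of 9882. The other control members held 14 to 34 and 7 to 30 UMIs of that list, beside 11 to 19 and 4 to 46 in the members of MOF cKO replicates 5 and 6. Without these 2 cells 0 of 2239 genes passed by edgeR and 48 had an unadjusted p under 0.05, and the log2 fold change was −0.99 for Hbb-bs and −0.40 for Hba-a1. Without the members of 20 or more Krt5 and Krt14 UMIs 0 of 1803 passed and 37 had such a p. Leaving out members with 3 or more UMIs of fibroblast, immune, endothelial, melanocyte, muscle or Schwann cell markers, a count that does not include globins and so drops the second of these cells and keeps the first, no gene passed by edgeR and 41 of 1439 had an unadjusted p under 0.05. DESeq2 called 5 genes, all lower in the MOF cKO. Leaving out 1 library raised the count to between 17 and 32.

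None of the terminal genes passed. In the cornified envelope list 0 of 11 tested genes passed, with a median log2 fold change of 0.03, against 0.00 over all genes. Hrnr differed by −0.13 ± 0.70, Cnfn by −0.19 ± 0.66, Krtdap by 0.04 ± 0.34 and Sbsn by 0.34 ± 0.38 (log2 ± SE, adjusted p = 0.9999 for each by edgeR). Ivl differed by −1.10 ± 0.95 and Crct1 by −2.65 ± 1.06, with the same adjusted p. Crct1 was the one gene of the list with an unadjusted p under 0.05 (0.0362 by edgeR). In the barrier lipid list 0 of 17 passed, with a median of 0.32. Of 70 nuclear-encoded subunits of oxidative phosphorylation 0 passed, with a median of −0.11. With 8 to 15 cells a library, the standard errors of the envelope genes named here, 0.34 to 1.06, limit the size of difference that could be seen. MOF cKO replicate 6, with 15 members against 8 in replicate 5, was the mosaic embryo. Which of its members kept the histone mark is not known. In control replicate 3 most member UMIs came from members at or above 1% mitochondrial UMIs. The part of both in these results was not tested. Kat8 was at 1 to 3 UMIs in the members of each E15.5 library and could not be compared there. In all Krt1/Krt10 cells it stood at 12.8 and 14.4 CPM in the controls and 9.29 and 9.10 CPM in the MOF cKO, and the edgeR test of that difference gave an adjusted p of 0.762.

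Immediate early genes, which include the AP-1 factors that bind the motif shown above, had lower values in the MOF cKO members without passing the adjusted test. Of 11 tested AP-1 and immediate early genes, 0 passed the adjusted threshold, 8 had an unadjusted p under 0.05 and all 8 were lower in the MOF cKO, beside 2.58% of all genes with such a p. The median log2 fold change of the list was −1.72. Fosb stood at 396 and 351 CPM in the controls and 70.2 and 41.7 CPM in the MOF cKO (−2.82 ± 0.49, edgeR adjusted p = 0.186). Both MOF cKO libraries lay below both controls for 7 of the 11, beside 8.39% of all genes tested. Spinous cells showed Fosb at 641 and 516 CPM in the controls and at 119 and 411 CPM in the MOF cKO. Leaving out 1 library left between 4 (without control replicate 3) and 10 genes with such a p. With Lor at 40 UMIs or more, 1 of 11 had an unadjusted p under 0.05, with a median of −1.14. Among members under 1% mitochondrial UMIs, 3 could be tested and 1 had such a p, and 2 of 7 did among members under 3 UMIs of other lineages and among members under 20 Krt5 and Krt14 UMIs. Without the 2 globin-rich cells 8 of 11 did. The adjusted count of 0 was 1 with DESeq2, 2 with no low-count filter and 1 to 3 with 1 library left out. The control libraries had 2 and 7 members at or above 1% mitochondrial UMIs and the MOF cKO 2 and 5. These cells weighed more in the sums, with a median of 28168 UMIs against 7397 in the other members of all libraries. In control replicate 3 the 8 members under 1% held 2709 to 9294 UMIs each. The 7 others held 15171, 20291, 28042, 28168, 33086, 35143 and 61530, most of the library's 265041 member UMIs. The largest had 21 Lor UMIs. Over all libraries, members at or above 1% had a median of 61.1 Lor UMIs per 10000, against 927 in the rest. Beyond the fit under 1%, in which 3 genes could be tested, the part of these cells in the result was not tested.

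By the same measure, genes that stood higher in both MOF cKO libraries with an unadjusted p under 0.05 did not pass the adjustment. Both MOF cKO libraries lay above both controls for 20.8% of all genes tested, beside the 8.39% that lay below. Prr9, a proline-rich gene of the same chromosome 3 cluster (92122204 to 92123947), stood at 8165 and 601 CPM in the MOF cKO and at 142 and 11.3 CPM in the controls. Spink5 stood at 749 and 149 CPM against 84.9 and 109 CPM, and the calpain small subunit Capns2 at 1211 and 321 CPM against 56.6 and 211 CPM. For all 3 genes the MOF cKO replicate 5 held the highest value. Among the genes lower by this measure, Krt23, a type I keratin, stood at 519 and 75.5 CPM in the controls and at 29.2 and 17.9 CPM in the MOF cKO. The same held for Gm20741, with 13244 and 1117 CPM in the controls and 813 and 619 CPM in the MOF cKO.

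The effect of MOF loss was then compared between members and spinous cells of the same 4 libraries, as a class-by-genotype term with the library as a block. An unadjusted p under 0.05 was found for 3.21% of genes. In 20 of 9171 genes (0.218%) the log2 effect differed at an adjusted p under 0.05 by edgeR, and in all 20 it was lower in members. Of these, 3 are in the cornified envelope list and 4 are globins, and Cd52 and Postn are in the immune and fibroblast lists. The term was −6.47 ± 1.20 for Krt23, −6.47 ± 0.89 for Ivl and −6.13 ± 0.93 for Crct1. It was also below 0 for Serpinb3a, a serpin induced in stressed epidermis (−4.83 ± 0.71), Cnfn (−3.59 ± 0.63) and Sprr1b, a small proline-rich envelope protein (−2.83 ± 0.60).

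For Ivl and Cnfn the levels differed most in the spinous cells of 1 library. Ivl in spinous cells stood at 1.52 and 0 CPM in the E15.5 controls, at 68.0 CPM in MOF cKO replicate 5 and at 1.80 CPM in replicate 6. In members it stood at 396 and 64.1 CPM in the controls and 181 and 35.7 CPM in the MOF cKO. Cnfn in spinous cells stood at 1.90 and 0.665 CPM in the controls, 35.8 CPM in MOF cKO replicate 5 and 3.85 CPM in replicate 6. Replicate 5 stood above the other 3 libraries for both. The globins and Krt23 differed more in the members, with Krt23 at 5.32 CPM or less in the spinous cells of each library. Without MOF cKO replicate 5, 0 of 9943 genes passed and 154 had an unadjusted p under 0.05, and without replicate 6, the mosaic embryo, 48 passed. The term for each of the 20 genes was below 0 in both fits. These genes were chosen by that term in the fit of all libraries, so the shared sign is no separate support. With members under 3 UMIs of other lineages only, 17 genes passed, 12 of them among the 20. Without the 2 globin-rich cells 17 passed, 15 of them among the 20, and none of the 4 globins did (terms of −0.72 to 0.38). Without the members of 20 or more Krt5 and Krt14 UMIs 21 passed, 14 of them among the 20. Because Lor split the classes, the limit decides which class a cell's Ivl and Cnfn count in. With the limit between the classes at 10 Lor UMIs, 26 genes passed, 18 of them among the 20, and the term was −5.84 for Ivl, −6.27 for Crct1 and −3.69 for Cnfn.

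The share of each transcript held by loricrin-high cells gives this in counts. In the Krt1/Krt10 cells of MOF cKO replicate 5, members held 97.1% of the Hrnr UMIs but 11.9% of the Ivl UMIs (31 of 261). The share of Lor itself follows from the rule and is no comparison. In the E15.5 controls members held 91.3% of the Ivl UMIs of replicate 2 (42 of 46) and all 17 of replicate 3, and in MOF cKO replicate 6 they held 6 of 13. In the E16.5 controls they held 98.0% and 99.0% of 102 and 600, and in E16.5 MOF cKO replicate 1 its single member held 6 of 77. Krt1/Krt10 cells with at least 5 Ivl UMIs were loricrin-high in every case in the 4 control libraries (4, 1, 5 and 11 cells). In MOF cKO replicate 5, 15 of 18 such cells had Lor under 20 UMIs, and in E16.5 MOF cKO replicate 1, 5 of 6. MOF cKO replicate 6 had no such cell. In the spinous cells of replicate 5 the stress keratin Krt6a stood at 1014 CPM and Krt16 at 1744 CPM, and the 8 members held 2 and 0 UMIs of them. The 15 members of replicate 6 held 42 UMIs of the stress keratin list.

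**Figure D4:**
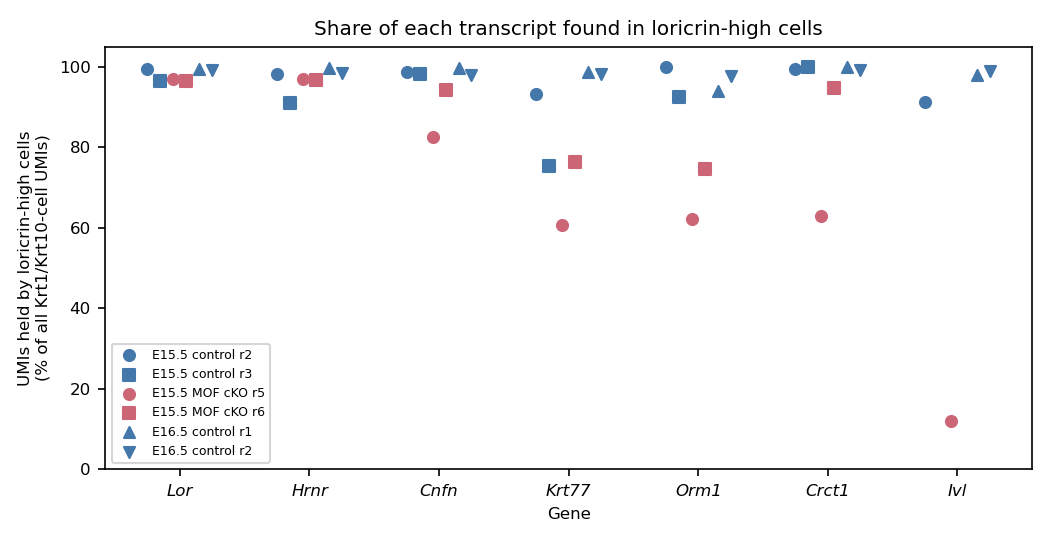
For 7 genes (horizontal), the percentage of the UMIs of all Krt1/Krt10 cells that lay in loricrin-high cells (vertical, %), 1 point for each of the 6 libraries with at least 5 members, shown where the gene had at least 20 UMIs, controls in blue and MOF cKO in red. Lor is shown for scale, since the rule sets its share. Hrnr stays at 91.0% or more in these libraries, while Ivl is at 11.9% in MOF cKO replicate 5 and at 91.3% or more in 3 control libraries.

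At E16.5 the single MOF cKO member could not be tested. It held 25 Lor UMIs among 4087, with 127 Krt1, 60 Krt10 and 6 Ivl UMIs and 0.489% mitochondrial UMIs. Hrnr, Krt77, Crct1 and all late cornified envelope genes were at 0 in it. It carried 70 UMIs of Krt6b and 32 of Krt16, keratins of stressed and wounded epidermis, of which the 21 control members of that stage held 0.

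Loricrin itself was tested at E16.5 in all Krt1/Krt10 cells, whose limits do not use it. That comparison was added after the values had been seen. Of 3551 genes, 41 passed by edgeR (1.15%), 36 higher and 5 lower in the MOF cKO, and 20.4% had an unadjusted p under 0.05. With library size alone as the scaling, 55 were higher and 37 lower, around a median gene at −0.56. DESeq2 called 126, and leaving out 1 library gave between 19 (without MOF cKO replicate 1) and 195 (without MOF cKO replicate 2). Lor stood at 43573 and 25308 CPM in the controls and at 145 and 75.6 CPM in the MOF cKO (log2 fold change −7.75 ± 0.82, edgeR adjusted p = 0.0111). Most Lor UMIs of the control cells lay in members, with medians of 2504 and 1326 a cell against 4 and 2 in spinous cells. This result is thus not separate from the member counts. In control replicate 1 single members held 7676 and 5345 Lor UMIs. Spinous cells under 1% mitochondrial UMIs were 4 of 22 and 18 of 49 in these controls. In the MOF cKO they were 7 of 8 and 8 of 10. Members, which the test also held, were under 1% in 7 of 7 and 13 of 14 control cells and in the 1 MOF cKO cell. The part of this difference in the result was not tested. Lor fell with Hrnr (−6.89 ± 0.92, adjusted p = 0.0223) and Cdsn (−3.31 ± 0.51, adjusted p = 0.0329). For Lor the adjusted p was 0.0552 without MOF cKO replicate 1, and for Hrnr 0.0601. Hrnr stood at 1996 and 1043 CPM in the controls and at 0 and 20.6 CPM in the MOF cKO.

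Of 11 tested genes of the cornified envelope list these 2, Lor and Hrnr, passed, while 4 were lower and 1 was higher at an unadjusted p under 0.05. Crct1 had a log2 fold change of −4.43 (edgeR adjusted p = 0.0909), Ppl (periplakin) of −1.23 (adjusted p = 0.221) and Cst6 (cystatin E/M) of 2.77 (adjusted p = 0.0807). Cnfn stood at 1201 and 1489 CPM in the controls and 2108 and 804 CPM in the MOF cKO (0.64 ± 0.61, adjusted p = 0.581 by edgeR). Krtdap, Sbsn and Ivl also overlapped between the groups, and their log2 fold changes were 0.21 ± 0.74, 0.68 ± 0.74 and −0.54 ± 0.91. All 7 tested small proline-rich genes, of 14 listed, were higher in the MOF cKO and passed, as did 3 of 4 stress keratins. The low-count filter keeps a gene that is counted in 1 group alone. Some of these genes entered through the MOF cKO, with Sprr2h and Krt6b at 0 CPM and Sprr1a at a mean of 3.62 CPM in the controls. Their shared direction was thus partly set by the filter. Krt6a stood at 6.66 and 5.02 CPM in the controls and at 16508 and 9960 CPM in the MOF cKO. Of 12 tested AP-1 and immediate early genes, 4 were higher and 0 lower at an unadjusted p under 0.05, with a list median of 0.81. In the same test at E15.5 the median was −0.58, with 0 of 17 passing and 9 lower and 0 higher at such a p. Ier3 passed (3.62 ± 0.51, edgeR adjusted p = 0.0257), while Zfp36 stood at 2.22 and Fos at 1.497 without passing. All 6 tested late cornified envelope genes, of 21 listed, were lower with an unadjusted p under 0.05, and 0 passed. The list made up 0.00052% and 0.00069% of the UMIs of the MOF cKO cells. These 6 genes thus met the low-count filter through the controls, which set their direction. Among control members, single cells held 11976 and 5701 of the 17706 Lce UMIs of replicate 1. In replicate 2 single cells held 985 and 100 of 1119. Few control cells thus carried this difference. With 1 member among 19 cells in the MOF cKO and 21 among 92 in the controls, fewer loricrin-high cells and less loricrin per cell cannot be told apart.

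At E15.5 the same test in all Krt1/Krt10 cells called 0 of 10243 genes (0%) by edgeR, with 607 (5.93%) at an unadjusted p under 0.05, and DESeq2 called 23. Without the mosaic MOF cKO replicate 6, 2091 passed, without replicate 5, 27, and without control replicate 3, 8. Lor stood at 2530 and 643 CPM in the controls and at 2516 and 1258 CPM in the MOF cKO, so the groups overlapped (0.46 ± 0.70, adjusted p = 0.855).

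RNA of other lineages was present in some members. Fibroblast markers made up 0.00409 to 0.0981% of member UMIs and immune markers 0 to 0.0464%. Endothelial markers were at 0.00260% or less. One member of E15.5 control replicate 2 held 96 fibroblast UMIs and had 5928 genes, and 1 of control replicate 3 held 120 immune UMIs. The periderm list made up 0.0727 to 0.357% of member UMIs in the 6 libraries with at least 5 members and 0.176 to 0.377% of spinous UMIs there. Its keratins Krt8 and Krt4 were at 0 UMIs in all members, and Sfn, which suprabasal keratinocytes also express, stood at 589 to 2610 CPM in members. The part of these cells in the results was not tested beyond the fits without them given above.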

How the data were processed

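Back skin of mouse embryos was dissociated with collagenase and then trypsin, and 10x Genomics 3′ libraries were sequenced. Per the labels, the submitters' processing notes name Cell Ranger 6.1.2 and, for the E16.5 and E17.5 samples, also 1.3.1, with mm10. The authors deposited raw UMI counts per gene and called barcode, with no normalization, for 82691 barcodes, and the deposited totals were 13609345 to 203392303 UMIs a library.

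Cells were kept by the limits stated with the results, UMIs were summed per library and class, and sums were scaled to CPM. Groups came from the labels. Gene tests were edgeR 4.0.16 quasi-likelihood fits (R 4.3.3) with TMM scaling, filterByExpr and Benjamini-Hochberg adjustment at 0.05. Tests in members were run only where each library held at least 5 members. The tests in all Krt1/Krt10 cells had no such minimum, and the E16.5 MOF cKO libraries held 9 and 10 of these cells. DESeq2 1.42.0 was an alternative. Scripts were tested on simulated data. Shares were compared by exact two-sided permutation over libraries. Controls were littermates, but which libraries share a litter is not given in the sources used here, so p-values measure the spread between these samples. No doublet caller was run. E17.5 control and QPC cKO shared 1702 barcodes, 7 of them kept in both.

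The cell rule, gene lists and tests were chosen with earlier results of these data known. Genes were named from each list by mean level (up to 4) or by passing the test, and by the largest changes with groups that did not overlap at 50 CPM or more. Genes named in the comparison of members with spinous cells, the stage values and the shares of UMIs were chosen after their values were seen. Promoters came from RefSeq tables (GRCm38.p6) and positions from GENCODE vM21.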

Additional observations from a re-analysis of the deposited data

Results flagged for a closer look

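The difference between the effect of MOF loss in loricrin-high cells and in spinous cells at E15.5 passed the class-by-genotype test of edgeR (adjusted p under 0.05) for 20 genes, and each is given on the log2 scale, members minus spinous cells. Among genes of the keratinocyte lists used here the difference was −6.47 for Krt23, −6.47 for Ivl, −6.13 for Crct1, −4.83 for Serpinb3a, −4.48 for Trex2, −3.59 for Cnfn and −2.83 for Sprr1b. For the globins of red blood cells it was −4.55 for Hbb-bt, −4.20 for Hbb-bs, −4.06 for Hba-a1 and −4.00 for Hba-a2. These 4 rested on 1 member of each E15.5 control, with 1633 and 9643 UMIs of the list that holds the globins. Without these 2 cells 15 of the 20 genes passed, and the difference was −0.16 for Hbb-bs and 0.38 for Hba-a1. With a limit of 10 Lor UMIs between the classes 18 of the 20 passed. The difference was −14.15 for the immune marker Cd52 and −3.61 for the fibroblast marker Postn. Among genes of no list it was −12.52 for Coro1a, −10.56 for Arpc1b, −5.75 for Lypd5, −4.29 for Orm1, −3.49 for Crabp2, −3.18 for Pdzk1ip1 and −2.49 for Ccnd2. The control member with 120 immune UMIs moved with Cd52 and Coro1a, and the control member with 96 fibroblast UMIs moved with Postn, which was at 283 CPM in the members of E15.5 control replicate 2 and at 0 to 18.9 CPM in those of the other E15.5 libraries. When members with 3 or more UMIs of other lineages (globins not counted) were left out, 18 of the 20 genes could be tested, 17 of them were below 0 and 12 passed. Cd52, Coro1a and Arpc1b were at 0 in the members of both MOF cKO libraries, so their fitted values depend on the prior count and are no bound. Without MOF cKO replicate 5, 0 of the 20 passed.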

How the results depend on the processing

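The E15.5 share of kept cells was 0.0321 percentage points lower in the MOF cKO and turned to 0.0342 higher with Lor at 10 UMIs or more and to 0.00229 higher with limits per 10000 UMIs. Leaving out 1 library gave −0.0632 to −0.00101. The E15.5 share of Krt1/Krt10 cells ranged from −0.911 to 2.07 percentage points when 1 library was left out and was −0.0148 over all called barcodes. Both E16.5 shares stayed lower in the MOF cKO in every alternative run. With 1 library left out, Ivl in E15.5 members ranged from −2.83 to 0.70, positive without control replicate 2. In all Krt1/Krt10 cells of E16.5 with 1 library left out, Cnfn ranged from −0.41 (without MOF cKO replicate 1) to 1.298, Ivl from −2.69 to 0.56 (without control replicate 2; 0.32 without MOF cKO replicate 2) and Krtdap from −0.95 (without MOF cKO replicate 1; −0.41 without control replicate 1) to 0.95, and Krtdap was −0.36 with library size alone. The cause of these turns was not tested.

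The 2 calls among members became 5 with DESeq2, 30 with no low-count filter, 17 to 32 with 1 library left out, and 0 with Lor at 40 UMIs or more, with members under 3 UMIs of other lineages (globins not counted) with members under 1% mitochondrial UMIs, without the 2 globin-rich members or with members under 20 Krt5 and Krt14 UMIs. The 20 class-by-genotype calls ranged from 0 to 48 with 1 library left out. In all Krt1/Krt10 cells at E15.5 the 0 calls became 23 with DESeq2, 403 with no filter and 0 to 2091 with 1 library left out, the last without MOF cKO replicate 6. At E16.5 the 41 calls became 126 with DESeq2, 23 with RLE size factors, 92 with library size alone (55 higher and 37 lower, where the median gene stood at −0.56), 379 with no filter and 19 to 195 with 1 library left out. Lone libraries were assumed to vary like the other group.

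At E16.5 controls and MOF cKO share the replicate numbers 1 and 2, but same-numbered libraries did not deviate together (correlation −0.0127). With the number as a replicate block the E16.5 calls were 126, 91 of them higher, and the block left the shares at −17.6 and −0.523 percentage points (exact p = 0.5, the smallest it allows). The planned member tests at E16.5 and E17.5, with their alternatives, were not run because those groups held 1 and 0 members. The settings by mitochondrial share, globin UMIs, Krt5 and Krt14 and the Lor limit between the classes, all called barcodes, the block on these results and every test in all Krt1/Krt10 cells were chosen after seeing the data. The member tests at E15.5 rested on 106011 to 265041 UMIs a library.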
